A study of Mus musculus with 24 samples.

Results

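The microRNAs miR-451 and miR-486, both known from red blood cell precursors, were followed across a TaqMan card study of mouse bone marrow and 3 tumour cell lines. They are the 2 assays named mmu-miR-451 and mmu-miR-486 among the 584 miRNA assays of the deposited table, and they were chosen by name. The groups were L-1210, a lymphocytic leukaemia line grown in suspension with horse serum; M1, a myeloid leukaemia line grown in suspension with fetal bovine serum; PYS, a teratocarcinoma line that grows attached, with fetal bovine serum; and CT-BM, primary cells flushed from mouse femur and tibia. Each group had 3 replicates, the lines were taken at passage 3, and the sources used here give no strain, age or sex of the mice and no treatment of any group. The series title calls the marrow cells stem cells, whereas the design text describes flushed marrow that was washed and collected, and the growth notes of the CT-BM samples describe a suspension culture, so the state of the marrow cells measured is not settled by the labels. The labels do not say that replicates came from separate animals or cultures. The p-values therefore measure the spread between these samples only, which may be technical. For a group with no detected replicate, the p-values hold no spread of the miRNA itself on that side.

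A microRNA is a short RNA that guides Argonaute proteins to messenger RNAs, mainly through its seed, the bases from position 2 to position 8. miR-451 is made from a locus it shares with miR-144, which the erythroid factor GATA1 drives, and its hairpin is too short for Dicer and is cut by Argonaute 2 instead. It accumulates as red cell precursors mature and is abundant in circulating red cells. miR-486 is encoded within the gene Ank1, which makes the ankyrin of the red cell membrane skeleton and has a separate form in muscle, and the miRNA is known from erythroid cells and from skeletal and heart muscle. In whole marrow, which holds red cell precursors beside other blood cells, both are therefore known mainly as erythroid markers.

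The sequence behind the miR-451 assay is shown because it is the unusual one of the pair. RefSeq (GRCm38.p6) lists the assay's older name as a synonym of Mir451a, whose mature miRNA lies at chr11:78073186-78073207 on the plus strand, and the capitals mark the seed. The neighbouring miR-144 and the overlapping miR-451b, a miRNA read from the opposite strand at chr11:78073219-78073239, follow for comparison with their seeds in capitals.
mmu-miR-451a: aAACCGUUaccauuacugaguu
mmu-miR-144-3p: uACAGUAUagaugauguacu
mmu-miR-144-5p: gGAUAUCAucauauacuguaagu
mmu-miR-451b: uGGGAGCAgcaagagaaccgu
Among the 1679 mature mouse miRNAs of the RefSeq table, the miR-451a seed was found in 1, miR-451a itself, so no other listed mouse miRNA shares it. In the hairpin, at chr11:78073170-78073241 on the plus strand, capitals mark the mature miRNA.
Mir451a: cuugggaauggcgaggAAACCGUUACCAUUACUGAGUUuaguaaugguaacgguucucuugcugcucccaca
The mature miRNA takes 22 of the 72 bases, from position 17 to position 38, and so runs from the 5′ stem into the loop. The Mir144 and Mir451a hairpins are 99 bases apart on the same strand. Of the 2 members, 1 was matched to a sequence, and miR-486 is given by name only.

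The deposited value of a well is its Ct, the PCR cycle at which the signal crossed a threshold, so a lower Ct stands for more RNA and 1 cycle for about a doubling. Each replicate had 1 well of miR-486 and, except in M1 replicate 2, 1 of miR-451, both on card A, in a run of 40 cycles. A well with no amplification, or with a Ct over 35, was counted as not detected. Over the whole series the table held 8969 wells on 24 card runs, 367 to 380 a run, of which 4334 (48.3%) did not amplify.

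Both miRNAs were measured in every marrow replicate and lay at or beyond the detection limit in the leukaemia lines, whereas the teratocarcinoma line held miR-451 without detectable miR-486. miR-451 did not amplify in any of the 3 L-1210 replicates. In M1 it crossed the threshold at Ct 35.6 in replicate 1 and 34.99, just inside the limit, in replicate 3, and the well of replicate 2 is not in the table used here. In PYS it crossed at Ct 27.6, 26.7 and 28.0, and in CT-BM at Ct 20.5, 21.0 and 20.9. Marrow was thus high in every replicate, PYS was intermediate in every replicate, the leukaemia lines lay at or beyond the limit, and PYS and CT-BM did not overlap with each other or with either leukaemia line. The mean Ct of miR-451 was 27.4 ± 0.625 in PYS and 20.8 ± 0.255 in CT-BM (SD, n = 3 each).

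miR-486 did not amplify in any of the 3 replicates of L-1210, of M1 or of PYS. In CT-BM it crossed the threshold at Ct 24.5, 24.8 and 25.1, a mean of 24.8 ± 0.292 (SD, n = 3). It was therefore present in every marrow replicate and in none of the 9 replicates of the lines. Among the 517 mouse-named assays, 13 shared this pattern of detection in every CT-BM replicate and in no replicate of a line, and miR-486 is one of them. Detection in every CT-BM and PYS replicate but in no L-1210 replicate, whatever M1 showed, was shared by 26 mouse-named assays, miR-451 included. Some of these, such as miR-107, were detected in every M1 replicate, unlike miR-451.

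**Figure D1:**
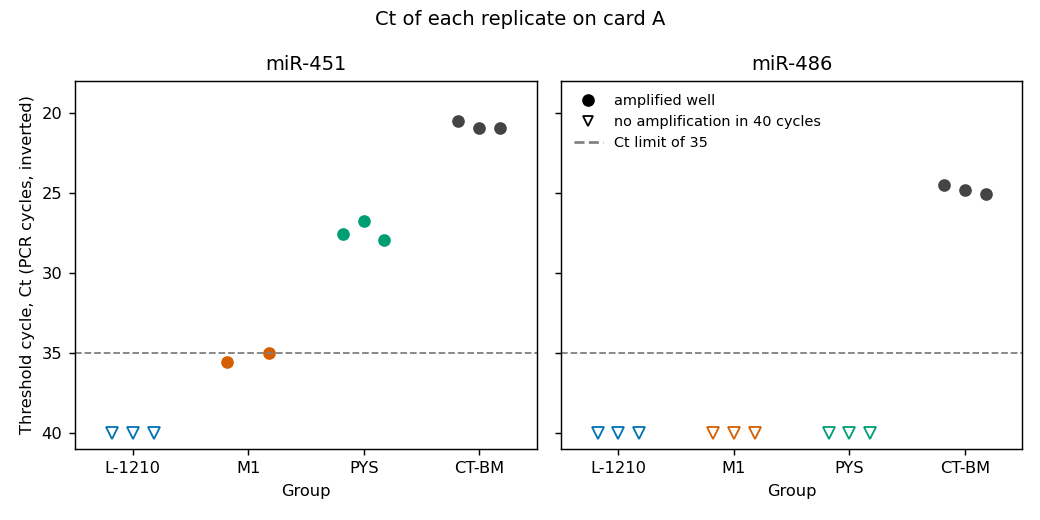
Ct of miR-451 and miR-486 in each replicate of L-1210, M1, PYS and CT-BM, on an axis of PCR cycles turned so that more RNA is higher; open triangles at the end of the run are wells with no amplification and the dashed line is the Ct limit of 35. The miR-451 points of PYS (Ct 26.7 to 28.0) lie between those of CT-BM (20.5 to 21.0) and the 2 present M1 wells (34.99 and 35.6), and miR-486 has points for CT-BM alone.

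To compare groups, each Ct was set against the mean Ct of 3 control RNAs (MammU6, snoRNA135 and snoRNA202) read in the same card run, and the level is that mean minus the assay's Ct, on a log2 scale. The miR-451 level was -13.66, -13.26 and -13.74 in PYS, a mean of -13.55 ± 0.26, and -5.98, -5.90 and -6.04 in CT-BM, a mean of -5.97 ± 0.07 (SD, n = 3 each). With undetected wells set to the limit, it was at most -21.19 on average in L-1210 (n = 3) and about -22.44 in M1 (n = 2). The order from low to high was the leukaemia lines, PYS and CT-BM; L-1210 and M1 were not tested against each other, since neither was detected in all present replicates; their wells did differ, in that the 2 present M1 wells amplified late and no L-1210 well did.

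The miR-486 level was -9.97, -9.73 and -10.20 in CT-BM, a mean of -9.97 ± 0.23 (SD, n = 3). Its upper limit was -21.19 for L-1210, -22.55 for M1 and -21.13 for PYS, so the 3 lines have no order for this miRNA. Levels of the 2 miRNAs are not set against each other, because assays differ in amplification and length is not part of the scale.

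Against marrow, miR-451 and miR-486 were both lower in L-1210. miR-451 was at least 38139-fold lower (log2 change -15.22 ± 0.27 SE, limma adjusted p = 7.42e-13) and miR-486 at least 2394-fold lower (log2 change -11.23 ± 0.29 SE, limma adjusted p = 1.66e-12). Both are bounds, since the line is known only to lie under the detection limit. Every undetected well was set to that limit, so the level of an undetected group varied only with the control RNAs. In L-1210 the SD was 0.476 for the miR-451 level, the miR-486 level and the control mean alike. The SE and adjusted p therefore hold no replicate spread of either miRNA in L-1210. The same applies to miR-486 in M1 and PYS, and to the L-1210 side of the miR-451 test against PYS. For miR-451 in M1, 1 of 2 wells was set to the limit and the other lay at Ct 34.99. Its level in M1 therefore varied almost only with the control RNAs, in the tests against CT-BM and against PYS. A change was called at an adjusted p under 0.05 and a fold of at least 2, and 45.6% of the 333 assays tested in this comparison were called lower, so a lower call by itself does not set the pair apart. In size, 0 of the 333 assays showed a larger decrease than miR-451, and 20 showed a larger one than miR-486, many of these decreases being bounds as well. Both miRNAs entered the test only because CT-BM detected them in all replicates, as did every assay undetected in the line. In marrow, fewer cells of a type and less RNA per cell cannot be told apart, here and in every comparison that follows.

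M1 gave the same picture at its own limit, again with both miRNAs entering the test through CT-BM alone. miR-451 was at least 90700-fold lower than in CT-BM (log2 change -16.47 ± 0.30 SE, limma adjusted p = 4.44e-13, n = 2 against 3, with the absent replicate left out), where 1 of the 2 M1 wells lay just inside the limit. miR-486 was at least 6118-fold lower (log2 change -12.58 ± 0.29 SE, limma adjusted p = 4.60e-13). Of the 325 assays tested, 44.3% were called lower, 2 had a larger decrease than miR-451 and 22 a larger one than miR-486. In both leukaemia lines every miR-486 well was set to a Ct of 35. The larger miR-486 bound in M1 than in L-1210 therefore reflects only the earlier control RNA cycles in M1. The larger miR-451 bound in M1 stands beside the same control cycles, and the lines were not tested against each other for either miRNA.

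In PYS, miR-451 was 191-fold lower than in CT-BM, the one change of the pair against marrow that was measured on both sides (log2 change -7.58 ± 0.28 SE, 95% interval -8.18 to -6.97, limma adjusted p = 6.62e-11). miR-486 was at least 2295-fold lower (log2 change -11.16 ± 0.29 SE, limma adjusted p = 7.08e-13). Of the 362 assays tested, 38.7% were called lower, 50 had a larger decrease than miR-451 and 24 a larger one than miR-486. The 3 comparisons share the CT-BM replicates, and miR-486 entered each of them through CT-BM alone.

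Between the lines, the test was possible for miR-451 alone, which entered only because every PYS replicate detected it. The direction of these tests was therefore largely set by that entry. It was at least 199-fold higher in PYS than in L-1210 (log2 difference 7.64 ± 0.27 SE, limma adjusted p = 4.55e-11), where 45.9% of 351 assays were called higher in PYS and 56 had a larger increase. It was at least 474-fold higher in PYS than in M1 (log2 difference 8.89 ± 0.31 SE, limma adjusted p = 3.07e-11, n = 3 against 2), with 1 of the 2 M1 wells set to the limit. With quantile normalization this difference was 3.78, or 13.7-fold (limma adjusted p = 0.00546). Of the 341 assays tested, 46.0% were called higher in PYS and 59 had a larger increase. These are also the tests of whether the change of miR-451 against marrow differed between PYS and each leukaemia line. L-1210 against M1 was not tested for miR-451, nor any pair of lines for miR-486, because no replicate set was fully detected. Replicates did not overlap in any of the 8 tested comparisons. An exact two-sided permutation test of each gave p = 0.1, the smallest that 3 against 3, or 2 against 3, can give. In every comparison but miR-451 in PYS against CT-BM, 1 side lay at or just inside the limit. Entry required detection on the other side, so non-overlap and this p were largely set beforehand. How many of all assays tested were free of overlap is not given here.

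The control RNAs themselves differed between the groups, which touches every fold above. On card A their mean Ct was 1.00 cycle earlier than in CT-BM in L-1210, 2.36 cycles earlier in M1 and 0.942 cycles earlier in PYS, and they did not move together. MammU6 came 0.740 cycles later in L-1210, 2.17 earlier in M1 and 0.567 later in PYS than in CT-BM. snoRNA202 came 2.64 cycles earlier in L-1210, 2.67 earlier in M1 and 1.53 earlier in PYS, and snoRNA135 1.11, 2.23 and 1.86 cycles earlier in the same order. The choice of control therefore shifts the PYS change of miR-451, which was 67.2-fold lower with MammU6 alone and 512-fold lower with quantile normalization, and the call held under each scaling tried. Without any scaling the raw Ct of miR-451 in PYS still lay over 5 cycles later than in any CT-BM replicate.

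**Figure D2:**
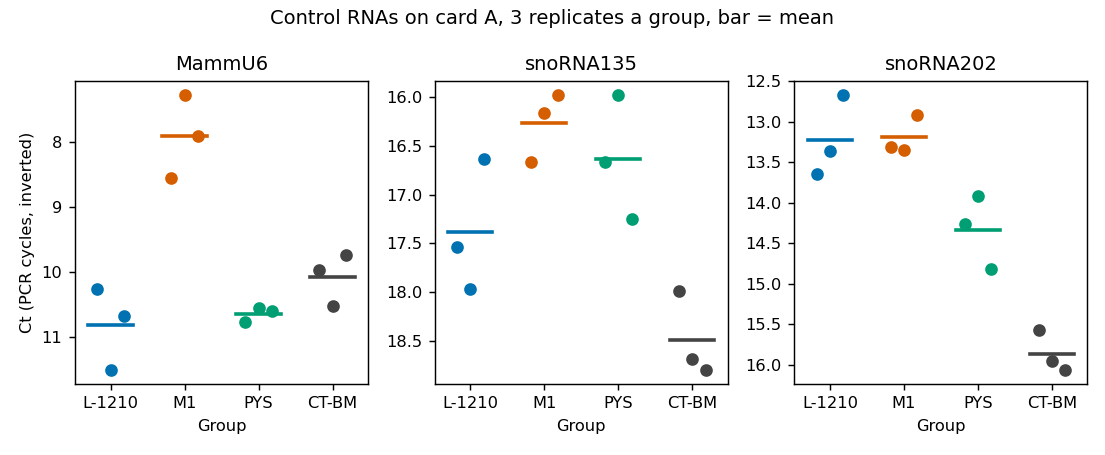
Ct of MammU6, snoRNA135 and snoRNA202 on card A in each replicate, with the group mean as a bar; the axis of PCR cycles is turned so that more RNA is higher, and each panel has its own range. MammU6 is earliest in M1, while snoRNA135 and snoRNA202 are latest in CT-BM.

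**Figure D3:**
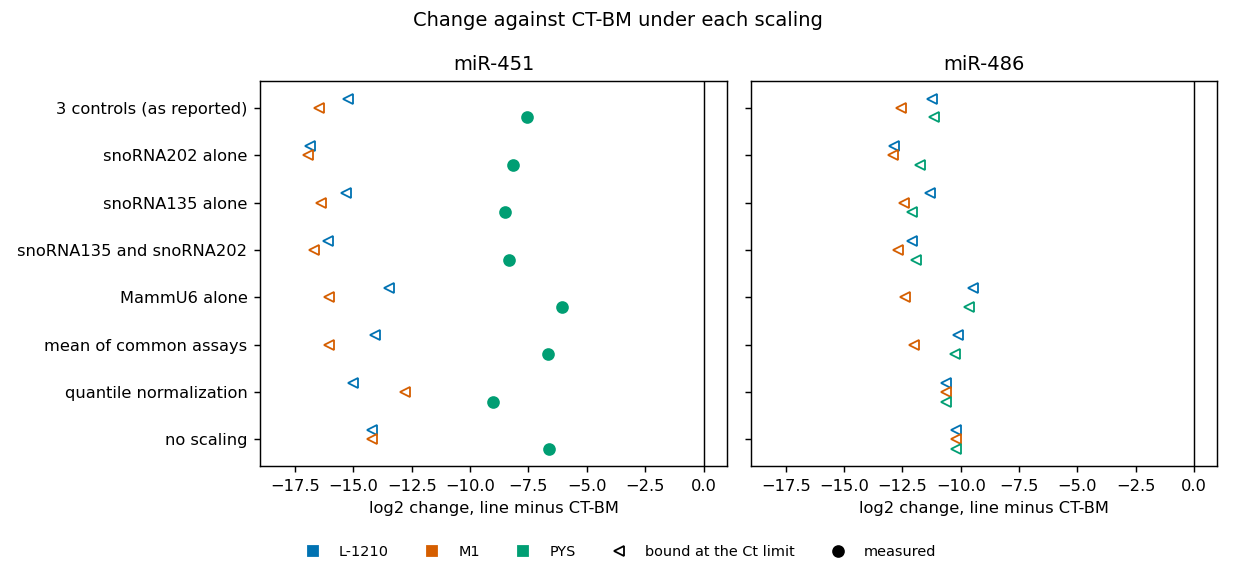
Change of miR-451 and miR-486 against CT-BM on the log2 scale under 8 scalings, for L-1210, M1 and PYS; open triangles are bounds at the Ct limit (for miR-451 in M1, 1 of 2 wells was detected) and filled circles are measured on both sides. Every point lies left of 0, and the PYS values of miR-451 run from -9.00 with quantile normalization to -6.07 with MammU6 alone.

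A comparison within a card needs no control RNA. The Ct of miR-486 minus the Ct of miR-451 in the same replicate was at least 7.44, 8.26 and 7.03 cycles in PYS, a mean bound of 7.58 ± 0.625, and 3.99, 3.83 and 4.16 cycles in CT-BM, a mean of 3.99 ± 0.162 (SD, n = 3 each). Every PYS gap exceeded every CT-BM gap, and the mean gap was at least 3.59 cycles wider in PYS. The widest CT-BM gap added to the latest PYS Ct of miR-451, 28.0, gives a Ct under the limit of 35, but not under the alternative limit of 32. The contrast of the gaps was noticed after the values were seen and carries no test. The source of miR-451 in PYS was not tested.

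The markers of other cell types that marrow holds also differed from PYS, and the whole lists are given beside the miR-451 signal. Their summed levels are linear, relative to the control RNAs, with undetected assays at 0. The pair miR-142-3p and miR-142-5p, found in blood cells of all kinds, summed to 1.84e-06 to 6.90e-06 in PYS and 0.147 to 0.162 in CT-BM, with miR-142-5p undetected in PYS. miR-223, typical of granulocytes and monocytes, lay at 4.07e-06 to 7.61e-06 in PYS and 2.36 to 2.70 in CT-BM, 458623-fold lower (limma adjusted p = 2.40e-14). miR-142-3p was 43041-fold lower in PYS. Both folds exceed the 191-fold of miR-451, and the difference between them was not tested.

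The same markers can be read within a card, free of the control RNAs. miR-223 came 3.92 ± 0.575 cycles after miR-451 in PYS, and its Ct minus that of miR-451 was -7.30 ± 0.146 in CT-BM (SD, n = 3 each). miR-142-3p came 4.56 ± 1.04 cycles after miR-451 in PYS, and its signed difference in CT-BM was -3.25 ± 0.0732 (SD, n = 3 each). miR-223 and miR-142-3p therefore followed miR-451 in PYS and preceded it in marrow, in all replicates of each group. The other blood marker, miR-142-5p, did not precede miR-451 in marrow. Its mean Ct in CT-BM was 23.1 beside 20.8 for miR-451, and it was undetected in PYS. The lymphocyte marker miR-150 preceded miR-451 in both groups, but by less in PYS. Its signed difference was -2.39 ± 0.294 in PYS and -4.23 ± 0.146 in CT-BM (SD, n = 3 each). The endothelial miR-126-3p also preceded miR-451 in both groups, but by more in PYS. Its signed difference was -8.41 ± 0.372 in PYS and -4.17 ± 0.158 in CT-BM (SD, n = 3 each). The muscle miR-133a followed miR-451 in PYS, at 0.898 ± 0.520, and preceded it in CT-BM, at -1.97 ± 0.409. Other muscle markers had another order. miR-1 followed miR-451 in both groups, with a mean Ct of 31.7 in PYS and 27.7 in CT-BM. miR-499 preceded miR-451 in PYS, with a mean Ct of 25.5 beside 27.4, and was undetected in CT-BM. The stromal miR-145 lay at 0.265 ± 0.229 in PYS and 0.448 ± 0.181 in CT-BM, so its distance to miR-451 differed between the groups by less than the SD in PYS. It was 168-fold lower in PYS beside the 191-fold of miR-451. The rest of the stromal list lay further from that value. miR-199a-3p was 65.0-fold lower in PYS. miR-143 and miR-214 were undetected there, at least 2391-fold and at least 4895-fold lower.

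**Figure D4:**
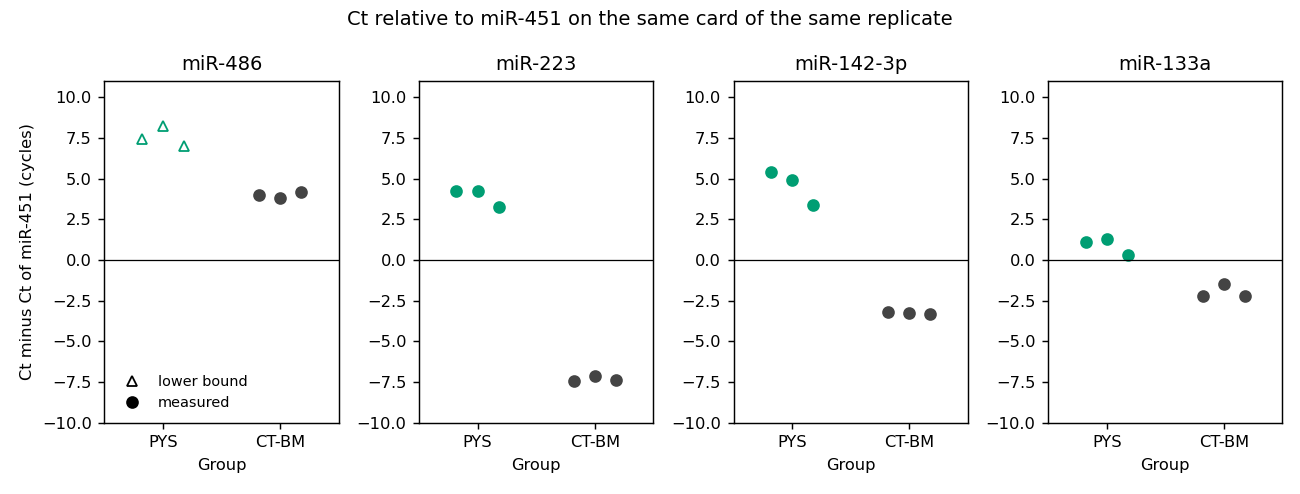
Ct of miR-486, miR-223, miR-142-3p and miR-133a minus the Ct of miR-451 within one card run, in cycles, for PYS and CT-BM; open triangles are lower bounds from undetected miR-486 wells. The miR-486 gap is at least 7.03 cycles in each PYS replicate and at most 4.16 in CT-BM, and miR-223 and miR-142-3p lie above 0 in PYS and below 0 in CT-BM.

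The other marker lists moved as follows beside the pair. The stromal list (miR-143, miR-145, miR-199a-3p and miR-214) summed to 0.000490 to 0.000659 in L-1210, 0.000705 to 0.000719 in M1, 8.70e-05 to 0.000134 in PYS and 0.0169 to 0.0192 in CT-BM, with all 4 detected in CT-BM. For M1 and CT-BM these are the 2 replicates with no absent well among the markers the group detected, and the remaining replicate summed to 0.000335 in M1 and 0.0128 in CT-BM. The endothelial pair miR-126-3p and miR-126-5p summed to 0.0296 to 0.0419 in L-1210, 0.0430 to 0.0522 in M1, 0.0261 to 0.0365 in PYS and 0.280 to 0.311 in CT-BM. The markers of all blood cells were measured in every replicate of the leukaemia lines, at 0.0294 to 0.133 in L-1210 and 0.0196 to 0.0383 in M1, while the erythroid pair was at the limit there. miR-223 was at 0.000157 to 0.000282 in L-1210 and 0.188 to 0.234 in M1, and miR-150 at 0.000130 to 0.000220 in L-1210, 0.00550 to 0.00592 in M1, 0.000354 to 0.000487 in PYS and 0.283 to 0.327 in CT-BM. The part of any of these cell types in the results for miR-451 and miR-486 was not tested.

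The label of each group could be read against the same lists. All 7 embryonic stem cell miRNAs were detected in every PYS replicate, with a summed level of 0.512 to 0.747 there, and at most 0.000119 in any replicate of L-1210, M1 or CT-BM. M1 had more miR-223, the myeloid marker, than L-1210, and the blood markers were present in both leukaemia lines. The lymphocyte marker miR-150 was lower in L-1210 than in M1.

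Because miR-486 is also a muscle miRNA, the 6 muscle markers are given separately. In CT-BM 3 of them were detected, miR-1, miR-133a and miR-206, which are known from skeletal and heart muscle, and miR-133b, miR-208 and miR-499 were not. Their summed level was 5.96e-05 to 8.29e-05 in the 2 L-1210 replicates that have a miR-133a well (1.21e-06 in the replicate without one), 2.65e-06 to 5.46e-06 in M1, 0.000305 to 0.000465 in PYS and 0.0476 to 0.0721 in CT-BM. All muscle markers that could be tested were lower in the leukaemia lines than in marrow, 3 of 3 in L-1210, where 45.6% of all assays were called lower, and 3 of 3 in M1, where 44.3% were, except that miR-206 in M1 was no longer called with quantile normalization. In PYS 3 of 4 were lower, where 38.7% of all assays were, and miR-499 was at least 369-fold higher.

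miR-133a had the largest value among these changes in each line, but some of the others are bounds that could be larger, such as miR-1 in L-1210. It was 934-fold lower in L-1210 (n = 2, with an absent replicate left out), at least 381708-fold lower in M1 and 1395-fold lower in PYS than in CT-BM. Thus PYS, which had no detectable miR-486, had detectable miR-1, miR-133a, miR-206 and miR-499. miR-486 was lower in every line, as were miR-451 and the muscle markers miR-1, miR-133a and miR-206, while miR-499 was higher in PYS. With the 3 control RNAs, every stromal and endothelial marker, miR-223 and miR-150 were also called lower in every line. Lower calls were also common beyond these lists, at 38.7% to 45.6% of all assays tested, depending on the line. No line detected miR-486, so its changes are bounds and their sizes cannot be matched to those of any marker. The part of muscle RNA in the marrow signal was not tested.

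The wider set of miRNAs tied to red cell maturation gave mixed changes. Of 14 listed as accumulating or acting in that process, 10 are in the table, while miR-144, miR-144*, miR-451* and miR-486* were not analysed here. In L-1210, 0 of the 9 tested rose and 7 fell, with a median log2 change of -1.47 beside -0.82 over all assays tested, of which 22.5% were called higher and 45.6% lower. In M1, 1 of 9 rose and 2 fell, with a median of -0.46 beside -0.59, and of all assays tested 25.2% were called higher and 44.3% lower. In PYS, 5 of 10 rose and 3 fell, with a median of 0.35 beside 0.08, and of all assays tested 39.8% were called higher and 38.7% lower. Counts and medians of this list depend on the scaling, and no direction is read from them. With MammU6 alone 1 rose and 3 fell in L-1210, with a median of 0.28 beside 1.05 over all assays tested. Without scaling 7 rose and 1 fell in M1, with a median of 1.90 beside 1.56. With snoRNA135 alone 1 rose and 5 fell in PYS, with a median of -0.57 beside -0.84.

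Single members of this list gave the following changes. miR-16, the abundant member of a cell cycle family, was 42.9-fold lower in L-1210 and 3.40-fold lower in PYS, and its log2 change in M1 was -0.91 and not called. The PYS call of miR-16 was lost with quantile normalization, with the mean of common assays, with MammU6 alone and without scaling. miR-210, the miRNA best known from low oxygen, was 7.45-fold lower in L-1210, 9.88-fold lower in M1 and 4.37-fold lower in PYS. The call of miR-210 was lost in M1 without scaling and in PYS with MammU6 alone.

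miR-22 was 2.67-fold lower in L-1210, 9.71-fold lower in M1 and 3.63-fold higher in PYS. The L-1210 value of miR-22 turned to a log2 change of up to 0.61 under other scalings, and the PYS call was lost with snoRNA135 alone and with snoRNA135 and snoRNA202. miR-107 was at least 370-fold lower in L-1210, 2.88-fold higher in M1 and 2.18-fold higher in PYS, with the PYS call lost under each of the 3 scalings to the snoRNAs. miR-191 was 2.77-fold lower in L-1210, a call that 4 of 7 other scalings did not keep, and 9.40-fold lower in PYS, and its log2 change in M1 was 0.59 and not called. miR-96 was at least 212-fold higher in PYS.

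Of the 10 miRNAs listed as declining in or restraining red cell maturation, 2 rose and 7 fell in L-1210, with a median log2 change of -2.95 beside -0.82 over all assays tested, of which 22.5% were called higher and 45.6% lower. In M1 2 rose and 5 fell, close to the 25.2% of all assays called higher and the 44.3% called lower, with a median of -1.37 beside -0.59. Without scaling 4 rose and 3 fell in M1, with a median of 0.99 beside 1.56 over all assays tested. In PYS 0 rose and 9 fell, where 39.8% of all assays were called higher and 38.7% lower, with a median of -10.92 beside 0.08. miR-221, known in human cells to target the receptor KIT, was at least 2907-fold lower in L-1210, 14.7-fold higher in M1 and at least 2787-fold lower in PYS. Its partner miR-222 was 16904-fold lower in L-1210 and 73166-fold lower in PYS, and its log2 change in M1 was 0.20 and not called.

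miR-155, which is induced in activated and transformed blood cells, was 5.25-fold higher in L-1210, 5.32-fold higher in M1 and 103-fold lower in PYS. The L-1210 call of miR-155 was lost with snoRNA202 alone. miR-24 was not called in any line, with log2 changes of 0.01 for L-1210, -0.04 for M1 and 0.08 for PYS. The call of miR-24 changed with the scaling, in 4 of 7 others for L-1210 (log2 change -1.63 to 1.75), in 1 for M1 (up to 2.31) and in 2 for PYS (up to 1.59). Both lists were chosen with earlier results of these data known.

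**Figure D5:**
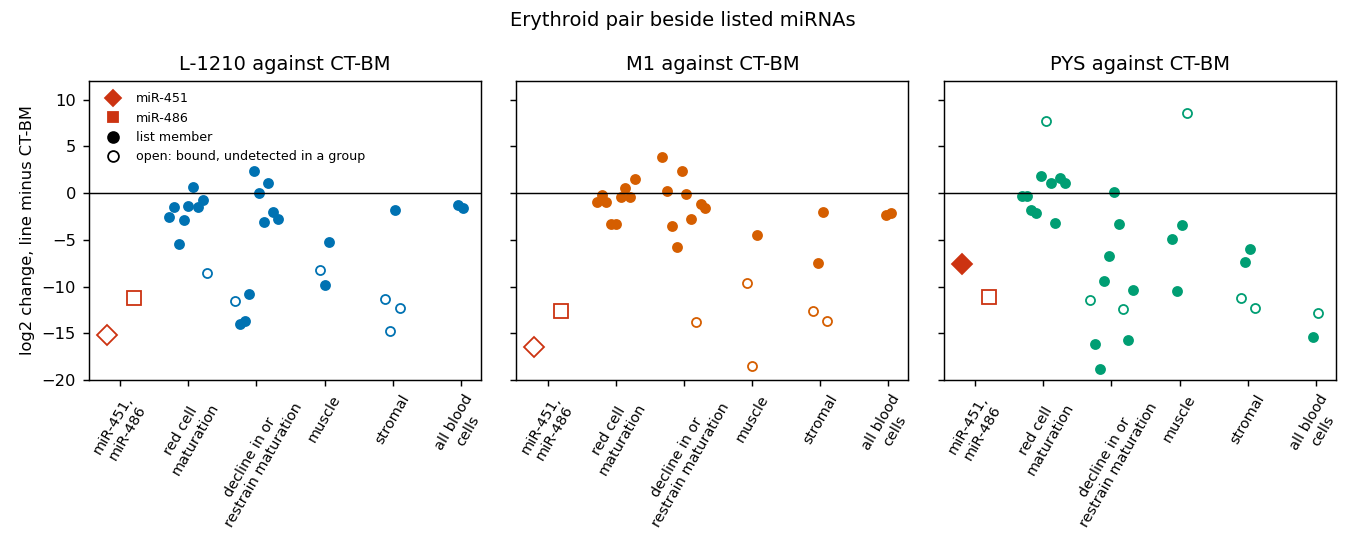
Log2 change against CT-BM of miR-451, miR-486 and the assays of 5 lists in L-1210, M1 and PYS; open symbols are bounds from a group with no detected replicate (for miR-451 in M1, 1 of 2 was detected). miR-451 and miR-486 lie at -15.22 and -11.23 in L-1210, where miR-107 at -8.53 and miR-16 at -5.42 are the lowest of the red cell maturation list.

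The mouse-named assays whose 3 changes against CT-BM were closest to those of each miRNA were found by root mean square difference over the 3 lines, among 262 candidates detected in every CT-BM replicate. For miR-486 they were miR-143 (0.0594 on the log2 scale), miR-511 (0.225), miR-692 (0.598), miR-124 (0.952) and miR-204 (1.11). All 5 were undetected in the 3 lines, so the likeness rests on the shared Ct limit and on similar levels in marrow. For miR-451 the closest were miR-204 (3.56), miR-133a (3.70), miR-511 (3.75), miR-143 (3.81) and miR-148a (3.81). No candidate therefore came closer to miR-451 than 3.56, whereas 4 came within 1 of miR-486. Of the 5, miR-148a shared its detection in PYS and absence in L-1210, with a log2 change of -2.45 in PYS.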

How the data were processed

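Total RNA of 12 replicates, 3 a group, was run on TaqMan rodent cards A and B. Per the labels, the authors isolated it with the mirVana kit and, after reverse transcription and preamplification, ran 40 cycles on a 7900HT. Per the file headers, the deposited values have another unit than an expression level, namely the Ct of each well and Ct Avg, in PCR cycles, not normalized. The software and its detection limit are not given in the sources used here. For all 3543 of 3543 Ct Avg values checked, the mean over the wells differed by under 0.001 cycles. No column of sample values was left unused (0). One replicate name without a card suffix was placed on card A by its assays (361 wells).

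A well that was undetermined or crossed after cycle 35 got a Ct of 35 and the status not detected; absent wells were left out. Levels, the control mean minus Ct, were fitted in R 4.3.3 by limma 3.58.1 (lmFit, eBayes, 4 group means), for 6 comparisons, with Benjamini-Hochberg adjustment over all assays tested in each. An assay was tested if every present replicate of at least 1 of the 2 groups was detected. Steps ran in Python 3.11.15 (pandas 2.3.3, numpy 2.4.6, matplotlib 3.10.9), and the fit was tested on simulated data. Named assays were the 2 miRNAs, the 5 closest to each, and members of the red cell and marker lists. The members and lists were chosen with earlier results of these data known. The median SD of levels was 0.377 in L-1210, 0.298 in M1, 0.268 in PYS and 0.239 in CT-BM. The number of replicates limits the precision, and no read depth applies. Alternatives were other control RNAs, other scalings, Ct limits of 32 and 40, other detection filters, card A alone, the replicate number as a block, exact tests and leaving out each replicate.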

Additional observations from a re-analysis of the deposited data

Results flagged for a closer look

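The change of miR-451 against CT-BM differed between PYS and each leukaemia line, by the limma tests of the lines against each other. The difference was 7.64 on the log2 scale for PYS against L-1210, a lower bound since no L-1210 replicate was detected, and 8.89 for PYS against M1, whose 2 present wells lay at Ct 34.99 and 35.6, the second set to the limit. In both tests miR-451 entered only through its detection in PYS, which largely set the direction. No comparable test could be made for miR-486, which no line detected.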

How the results depend on the processing

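All 8 changes of miR-451 and miR-486 kept their direction and call in 13 other settings each (14 for miR-451 in PYS against CT-BM) and in 6 of 6 fits that left out a replicate. The exact permutation test, which cannot go below p = 0.1, left the values as they were: miR-451 at -15.22 for L-1210, -16.47 for M1 and -7.58 for PYS against CT-BM, and 7.64 in PYS against L-1210 and 8.89 in PYS against M1; miR-486 at -11.23 for L-1210, -12.58 for M1 and -11.16 for PYS against CT-BM. The bounds follow the Ct limit: miR-451 in L-1210 ran from -20.22 at 40 to -12.22 at 32 and in PYS against L-1210 from 12.64 to 4.64, and miR-486 from -16.23 to -8.23 in L-1210, from -17.58 to -9.58 in M1 and from -16.16 to -8.16 in PYS. With quantile normalization miR-451 was -12.78 in M1 and 3.78 in PYS against M1 (limma adjusted p = 0.00546). Leaving out a replicate moved miR-451 between -15.46 and -14.98 in L-1210, -16.75 and -16.19 in M1 and -7.73 and -7.48 in PYS, and miR-486 between -11.46 and -10.98, -12.77 and -12.46, and -11.34 and -10.97 in the same lines.

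Same-numbered replicates did not deviate together (correlations from -0.453 to 0.334), so they share only a number. With the replicate number as a block, miR-451 was -16.33 in M1 against CT-BM and 8.75 in PYS against M1, and the counts of called assays against CT-BM were 229 for L-1210 (227 without the block), 225 for M1 (226) and 284 for PYS (284).

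Counts over all assays moved more. The scalings shifted the median of all tested assays by up to 1.87 for L-1210, 2.15 for M1 and 1.76 for PYS (log2), so changes under a few fold depend on the control. In L-1210 against CT-BM, 152 assays were lower, against 92 with MammU6 alone, 101 with quantile normalization, 240 with snoRNA202 alone and 397 without a detection filter; 75 were higher, against 42 (snoRNA202 alone) to 163 (MammU6 alone). In M1, 44.3% of 325 were lower, against 405 assays without a filter, 95 without scaling and 78 among assays detected in both groups; 82 were higher, against 181 without scaling, 141 with quantile normalization and 53 with snoRNA202 alone. In PYS, 140 were lower, against 234 without a filter and 91 among assays detected in both groups; 39.8% of 362 were higher, against 84 assays among the latter. Between lines, 161 were higher in PYS than in L-1210, against 93 among assays detected in both, and 157 in PYS than in M1, against 308 without a filter and 75 among assays detected in both. Card A alone, with fewer assays, gave 45 higher in M1 and 91 in PYS against CT-BM, and 104 in PYS against L-1210. Restricting to assays detected in both groups left a value for miR-451 in PYS against CT-BM alone.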
